A study of Homo sapiens with 4 samples.

Results

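Chromosome 14 held 3030 of the 138467 open regions obtained when the peak lists of 4 ATAC-seq libraries were merged wherever peaks overlapped by 1 bp or more. ATAC-seq marks open DNA through a transposase that inserts sequencing adapters there. The libraries came from 786-O, an established human clear cell renal carcinoma line. The 2 WT control libraries came from cells that express Cas9 and have the WT genotype, the negative control. The 2 DEK KO libraries came from Cas9-expressing cells that received guide RNAs against DEK by lentivirus and were sorted as single cells. DEK is a DNA-binding chromatin protein and histone chaperone. All 4 libraries thus share the Cas9 transgene, and the Cas9-expressing cells were themselves a clone. Nothing in the labels tells if replicates were grown, sorted or edited apart, and a p-value over libraries therefore reflects only how far these 4 samples spread, a spread that may be technical. The comparison asks where open chromatin differs between cells with and without DEK. Guide lentivirus and single-cell sorting are described for the DEK KO cells alone, so their effects cannot be told apart from loss of DEK. Chromosome 14 is described here because its long arm is often lost in clear cell renal carcinoma.

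The deposited lists held between 89563 and 102760 peaks on chromosomes 1 to 22 and X, and the 2 DEK KO lists were the longer ones. Peak lists carry no total read count, so depth is known only through the pileups recovered below. A region within 1 kb of either end of PAX8, a kidney lineage factor, was called in all 4 lists. No gene-end region of PTPRC, a leukocyte surface protein, or PECAM1, an endothelial one, was. Neither of these 2 genes was without open regions. Counted over the whole gene, PTPRC had 8 regions with 3 in all lists, PECAM1 had 6 with 3, and PAX8 had 13 with 8. The 4 regions of DEK itself were called in all 4 lists, and peak calls cannot check the knockout, since small edits at a guide site need not close the chromatin.

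Chromosome 14 is acrocentric: its short arm carries repeats and ribosomal DNA, and its genes lie on the long arm. One of them, HIF1A, encodes the oxygen-regulated subunit of HIF-1. In normal oxygen that subunit is hydroxylated and marked for destruction by the VHL protein. VHL is inactive in 786-O, a line known to rely on the related HIF-2. Open regions fall into promoters, which are usually shared between cell types and rich in CpG, and distal elements such as enhancers, which vary more between cell types.

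The starts of 5 genes show the range of promoter sequence under these calls. HIF1A is shown because the arm is examined for it, WDR89 and PARP2 because their starts were among the 8 strongest regions called in all 4 lists, and PSMB11 and IFI27 because the regions at their starts were found with DEK KO alone, in each of its 2 lists. The sequences are those of RefSeq on GRCh38.p14, 250 bases before to 50 bases after the start, written 5′ to 3′ on the strand of the gene. Capitals mark every match, on either strand, to any of 7 motifs. The GC box was searched as GGGCGG and the CCAAT box by the letters in its name. The core of the hypoxia response element was searched as ACGTG and the ETS site as CCGGAAG. The CRE site was searched as TGACGT, which can share bases with ACGTG. The AP-1 site was searched as TGANTCA and the TEAD site as GGAATG.
HIF1A, plus strand, chr14:61695263-61695562: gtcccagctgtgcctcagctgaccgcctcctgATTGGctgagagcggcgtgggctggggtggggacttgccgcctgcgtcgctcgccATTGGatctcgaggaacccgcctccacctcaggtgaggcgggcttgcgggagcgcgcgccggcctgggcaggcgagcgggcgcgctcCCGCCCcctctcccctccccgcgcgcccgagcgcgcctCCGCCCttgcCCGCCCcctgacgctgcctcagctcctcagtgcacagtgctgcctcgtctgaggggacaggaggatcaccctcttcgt
WDR89, minus strand, chr14:63641822-63642121: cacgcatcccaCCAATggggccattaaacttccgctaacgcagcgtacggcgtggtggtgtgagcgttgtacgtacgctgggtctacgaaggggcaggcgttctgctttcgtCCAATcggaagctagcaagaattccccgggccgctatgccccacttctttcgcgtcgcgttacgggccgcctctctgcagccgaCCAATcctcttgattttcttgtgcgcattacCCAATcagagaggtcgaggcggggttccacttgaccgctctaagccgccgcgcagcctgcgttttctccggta
PARP2, plus strand, chr14:20343385-20343684: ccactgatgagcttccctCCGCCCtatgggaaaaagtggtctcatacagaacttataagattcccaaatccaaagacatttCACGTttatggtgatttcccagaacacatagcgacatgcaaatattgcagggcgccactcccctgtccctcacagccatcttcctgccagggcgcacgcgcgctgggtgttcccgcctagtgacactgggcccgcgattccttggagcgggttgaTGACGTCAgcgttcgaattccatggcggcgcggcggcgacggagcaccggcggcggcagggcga
PSMB11, plus strand, chr14:23041962-23042261: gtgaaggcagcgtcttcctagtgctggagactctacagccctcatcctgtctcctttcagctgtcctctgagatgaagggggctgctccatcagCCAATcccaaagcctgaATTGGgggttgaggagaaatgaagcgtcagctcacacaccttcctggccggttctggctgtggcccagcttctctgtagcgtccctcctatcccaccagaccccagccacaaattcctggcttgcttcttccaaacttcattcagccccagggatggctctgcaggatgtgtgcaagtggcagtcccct
IFI27, plus strand, chr14:94110486-94110785: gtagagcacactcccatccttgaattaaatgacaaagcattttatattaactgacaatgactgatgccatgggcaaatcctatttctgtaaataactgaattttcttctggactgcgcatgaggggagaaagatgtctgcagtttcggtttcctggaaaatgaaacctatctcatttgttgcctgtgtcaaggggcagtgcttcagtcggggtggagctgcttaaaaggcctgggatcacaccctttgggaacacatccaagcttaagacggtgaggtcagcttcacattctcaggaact

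The HIF1A window held 31 CpG and matched the GC box at 3 places and the CCAAT box at 2. WDR89 also held 31 CpG and matched the CCAAT box 4 times, and PARP2 held 25 CpG and a palindromic CRE site just before its start. The windows of PSMB11 and IFI27 held 4 CpG each. PSMB11 matched the CCAAT box at 2 places, and the IFI27 window held none of the 7 motifs. The same contrast ran along the arm. Of the 605 protein-coding genes of chromosome 14, 525 had an entry in the promoter table. The 430 starts in or within 1 kb of a region called in all 4 lists had a median of 23.5 CpG and 63.3% G or C, and the other 312 starts had medians of 8 CpG and 57.3%. A GC box was found in 67.9% of the former and 42.3% of the latter, against 44.95% of all 35116 starts in the table. The whole table was not limited to protein-coding genes, as the 2 chromosome 14 sets were. The protein-coding genes used here had 22140 starts, so its shares are not a like background. For the ETS site the shares were 17.9%, 5.13% and 10.3%, for the CRE site 13.3%, 5.13% and 7.98%, and for ACGTG 28.4%, 13.1% and 21.4%, in the same order. The CCAAT box stood at 38.6%, 30.1% and 34.6%. The AP-1 site went the other way, with 3.26% of open starts, 7.37% of the others and 7.71% of all starts, and the TEAD site showed little contrast (12.6%, 14.7% and 14.03%). These matches describe letters in the window and not binding.

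Open regions were sparse and uneven along the arm. The first began at 20169829 and the last ended at 106883418 on GRCh38, a span of 86.7 Mb, of which regions covered 2.63%. The density of 34.9 regions per Mb was the third lowest of 23 chromosomes, whose other values ran from 23.4 on X to 63.3 on chromosome 20 with a median of 47.3. Chromosome 14 had 6.98 protein-coding genes per Mb, above the median of 5.82 for the others, so its 5.01 regions per gene also lay below their median of 7.46. The share of regions near gene ends was above that of most chromosomes. Of all regions on the arm, 14.7% were gene-end regions, within 1 kb of where a protein-coding gene begins or stops, against a median of 10.6% over the other chromosomes. A region called in all 4 lists lay at an end of 369 of the 605 genes, or 61.0% (exact 95% interval 57.0 to 64.9), against 60% of the 19974 genes of all chromosomes.

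In bins of 5 Mb, the density was highest at the start of the arm, between 20 and 25 Mb, with 57.8 regions per Mb and 135 genes. The bins from 100 to 105 Mb (53.2 per Mb), 90 to 95 Mb (50) and 65 to 70 Mb (49.0) followed. The lowest bin, 40 to 45 Mb, held 6.6 regions per Mb and 5 genes, and the bin from 25 to 30 Mb held 9.2 per Mb and 3 genes. The longest stretches with no region ran from 26282234 to 28751411 (2469 kb), from 40393789 to 42047589 (1654 kb) and from 42470486 to 44112874 (1642 kb). NOVA1, which encodes a neuronal splicing factor, was the only protein-coding gene wholly inside the first, and LRFN5, a synaptic adhesion gene, the only one inside the second. The third held none. The bin from 60 to 65 Mb, which contains HIF1A, held 45.2 regions per Mb, 1.29 times the mean of the arm.

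**Figure D1:**
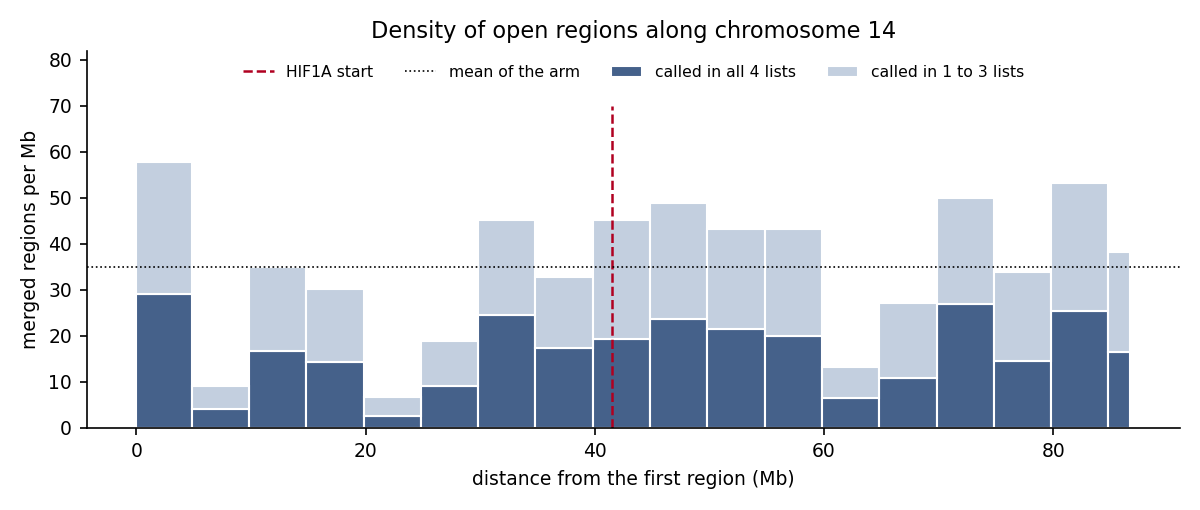
Merged regions per Mb (y axis) in bins of 5 Mb against the distance from the first region of chromosome 14 in Mb (x axis). Dark bars are regions called in all 4 lists and light bars those called in 1 to 3 lists, the dotted line is the mean of the arm (34.9 per Mb), and the HIF1A bin (dashed line) stands above it at 45.2 per Mb.

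At a finer scale the neighbourhood of HIF1A was dense in called regions. The window from 61.6 to 61.8 Mb held 35 regions, the most of the 435 windows of 200 kb on chromosome 14, whose median was 6. The window just before it, from 61.4 to 61.6 Mb, came second with 31, and the third held 25. With peaks of −log10 q of at least 5 alone, the HIF1A window held 18 regions and stood 7th (tied with another window), whereas the window before it was the highest with 26. Without WT control replicate 1 the HIF1A window stood 2nd. Over all chromosomes, 12 of 14752 windows held 35 or more. The 2 adjoining windows differed in the kind of call. Between 61.4 and 61.6 Mb, 21 regions were called in all 4 lists, the highest number of any window on the arm. Between 61.6 and 61.8 Mb only 11 were, and 16 of the 35 regions (45.7%) were called in a single list. That share was 24.4% on chromosome 14 and 29.4% over all chromosomes. Those single-list regions were weak, with a median percentile of 10.9 within their lists, where 100 is the strongest peak by −log10 p. Single-list regions of the whole chromosome were weak too, with a median of 14.1. In the HIF1A window their highest value was 20.6. Peaks in the HIF1A window numbered 23 and 20 in the controls, and 22 and 16 with DEK KO. The ranges of the groups overlapped (difference −2.5 peaks, exact permutation test over libraries, two-sided, p = 0.667). With 2 libraries against 2 this test cannot give a p below 0.333.

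HIF1A (61695513 to 61748258, plus strand) was open at its start in every library. The region there (61694924 to 61696472) reached the percentiles 72.2 and 62.9 in the controls, and 66.4 and 76.7 in the DEK KO lists. The pileup, the number of fragments or reads stacked at the summit, was 64, 54, 48 and 69 in the same order, so neither measure separated the genotypes. Behind the start, the gene body held 15 further regions, of which 10 were called in 1 list and 2 in all lists. Their median percentile was 12.2. The last one ended at 61738233, and the final 10.0 kb of the gene held no region. The next began at 61761425, at the start of SNAPC1, a subunit of the complex that transcribes small nuclear RNA genes.

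Some regions upstream of HIF1A ranked higher in the DEK KO lists. The region 32.3 kb before the start (61661845 to 61663205) had percentiles of 68.3 and 64.9 in the WT controls and 89.98 and 89.0 in the DEK KO libraries, and pileups of 46, 41, 67 and 81. A weaker one 26.8 kb before the start (61667652 to 61668681) had percentiles of 13.2 and 14.4 in the controls and 44.1 and 54.0 in DEK KO. At 41.2 kb before the start (61653316 to 61654283), a region was found with DEK KO alone, with percentiles of 48.3 and 54.0. Of the 11 regions in the window called in all 4 lists, 4 had both DEK KO percentiles above both control percentiles (36.4%, near the 31.1% over all chromosomes) and 0 had both below (against 19.2%). With every list cut to the length of the shortest, 3 of those 4 still did. This is a rank comparison with 2 libraries a group, and no single region can be tested in it.

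PRKCH, a protein kinase C gene that ends before the intergenic stretch, held 27 regions, 16 of them shared by every list. Among these 16, 5 ranked higher and 5 lower in both DEK KO lists. Over all chromosomes 31.1% of regions called in all lists ranked higher and 19.2% lower. SNAPC1 held 10 regions with 2 in all lists, and SYT16, a synaptotagmin gene, held 15 with 3. TMEM30B, a gene of 3.97 kb inside PRKCH that encodes a subunit of phospholipid flippases, held none. The background that the peak caller used also peaked here. Recovered from fold and p, it is given as a multiple of the list's lowest, genome-wide value. Between 61.4 and 61.6 Mb its median over regions was 3.77, the highest of the 268 windows on the arm with 5 or more regions, whose median was 1.14. It reached 14.2, 12.8, 13.3 and 14.7 in the 4 libraries at 61564530 to 61565258, 13.6 kb from the end of PRKCH, the highest mean on the arm. In the HIF1A window the median was 2.66, the 16th highest. A raised local background lowers fold and −log10 p for the same pileup, and its part in the low ranks inside HIF1A was not tested.

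**Figure D2:**
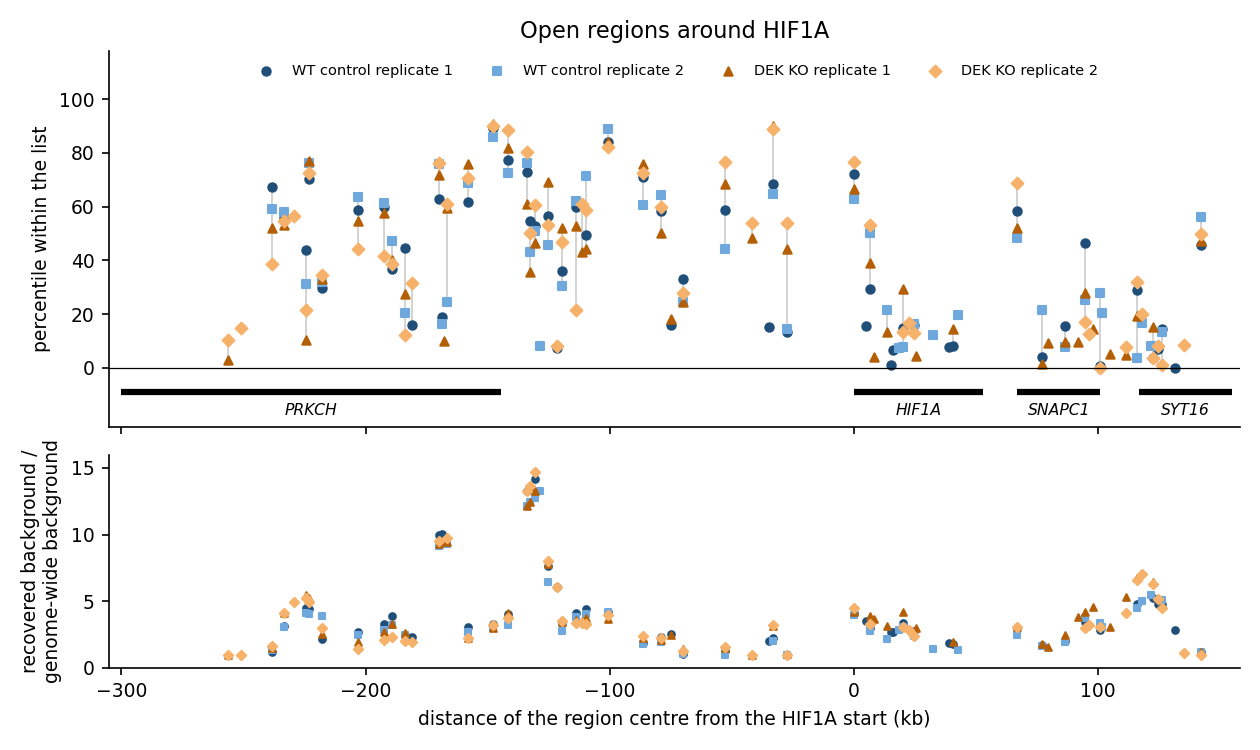
Upper panel: percentile of −log10 p within each list (y axis, 100 strongest) for every region, against its distance in kb from the HIF1A start (x axis), with a point per library that called it, a grey line joining the points of a region and black bars for genes. Lower panel: the recovered background as a multiple of the genome-wide value. At −32.3 and −26.8 kb both DEK KO points stand above both control points, regions inside HIF1A past its start sit low (median 12.2), and the background peaks upstream at 12.8 to 14.7.

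Chromosome 14 lacked strong peaks in all 4 libraries. By definition about 10% of a list lies above its 90th percentile of −log10 p. On chromosome 14 this share was 2.74% and 3.55% in the controls, and 4.24% and 4.29% with DEK KO, against 10.1% to 10.2% on the other chromosomes. The share was lower on chromosome 14 in 4 of 4 libraries (mean difference −6.44 percentage points ± 0.744, SD, n = 4 libraries, exact sign-flip test p = 0.125, the smallest this test can give). Averaged over libraries, the 3.70% of chromosome 14 was the lowest of 23 chromosomes, followed by 4.45% on chromosome 22. In each WT control library chromosome 22 was lower than chromosome 14, and in each DEK KO library chromosome 14 was the lowest. Peaks below the 10th percentile were also fewer on chromosome 14, with 8.94%, 6.87%, 7.65% and 7.37% of its peaks against 10.4%, 9.02%, 10.1% and 9.18% elsewhere. Between the 10th and the 80th percentile most bins held slightly more chromosome 14 peaks than elsewhere, and the median percentile was 47.7, 49.1, 48.3 and 47.3. When peaks were ranked by fold in place of −log10 p, the share in the top 10% rose to 9.12% and chromosome 14 stood 5th from the lowest. The shortfall was thus large by −log10 p and small by fold, and the reason was not tested.

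**Figure D3:**
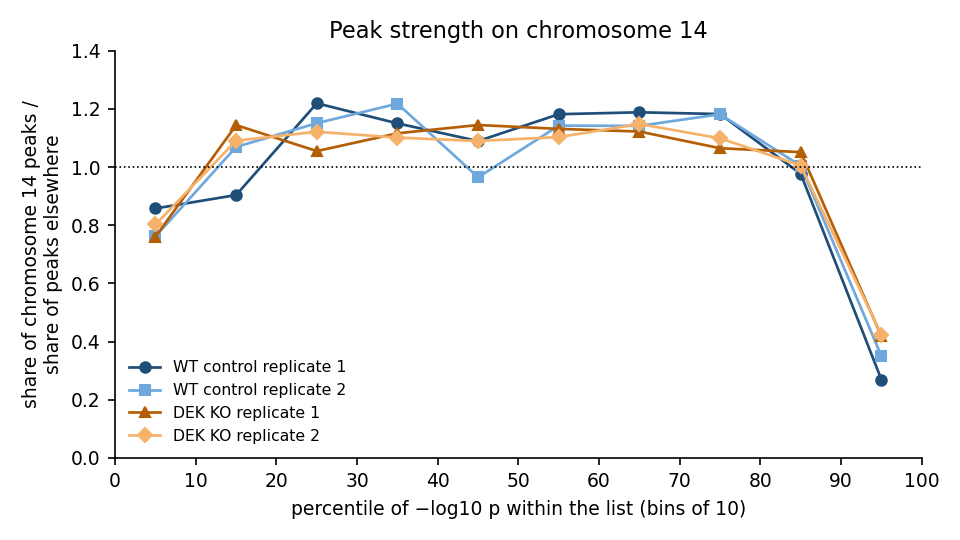
Share of chromosome 14 peaks divided by the share of peaks on the other chromosomes (y axis) in bins of 10 percentiles of −log10 p within the list (x axis), one line per library. The lines start between 0.761 and 0.858 in the lowest bin, run between 0.904 and 1.22 from there to the 90th percentile, and drop to between 0.269 and 0.423 above it.

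Pileups were lower as well. Fold and −log10 p together fix a whole pileup at each summit, and these were recovered for 100% of peaks. At the 341 gene-end regions of chromosome 14 called in all 4 lists, the median pileup stood at 52 and 54 in the controls, and at 44 and 53 with DEK KO. The medians over all chromosomes were 71, 74, 58 and 74. The ratio was 0.734 ± 0.018 (SD, n = 4 libraries), second lowest after chromosome 22 (0.717), while the other chromosomes reached up to 1.31 on chromosome 2. In the DEK KO libraries chromosome 14 was the lowest of all, whereas chromosome 22 was the lowest in the controls. At the 1120 other regions called in all lists the median pileups were 33, 33, 30 and 33, against 39, 38, 35 and 39 on the other chromosomes. Over all regions called in all lists the ratio was 0.862, the lowest of 23 chromosomes. The share of peaks whose background equalled the genome-wide value was 32.3%, 35.5%, 36.3% and 36.7% on chromosome 14. Pooled over the other chromosomes it was between 23.5% and 28.5%, lower in 4 of 4 libraries. Chromosome 14 was not the extreme: it stood at place 21, 22, 21 and 21 from the lowest of 23. X was higher in each library, with 33.8%, 37.5%, 40.1% and 40.2%.

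The low pileups were not even along the arm. Between 20 and 50 Mb, the median of 112 gene-end regions was 0.873, 0.831, 0.948 and 0.865 times the median over all chromosomes in the 4 libraries. Between 50 and 80 Mb (141 regions) the ratios were 0.718, 0.689, 0.707 and 0.703, and beyond 80 Mb (88 regions) they were 0.648, 0.635, 0.664 and 0.662. The ranges of the 3 pieces did not overlap. Single bins of 5 Mb did not fall steadily along the arm. Their mean ratio over libraries was 0.586 between 50 and 55 Mb (27 regions) and 0.848 between 60 and 65 Mb (17 regions). Between 80 and 85 Mb it was 1.00 (4 regions). Gene-end regions differ in the genes they belong to, and fewer DNA copies and less open DNA per copy cannot be told apart in peak lists. Distal regions did not follow the order of the 3 pieces. Their median pileups were 30, 30, 27 and 29 in the first piece and between 30 and 35 in the other 2 pieces.

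**Figure D4:**
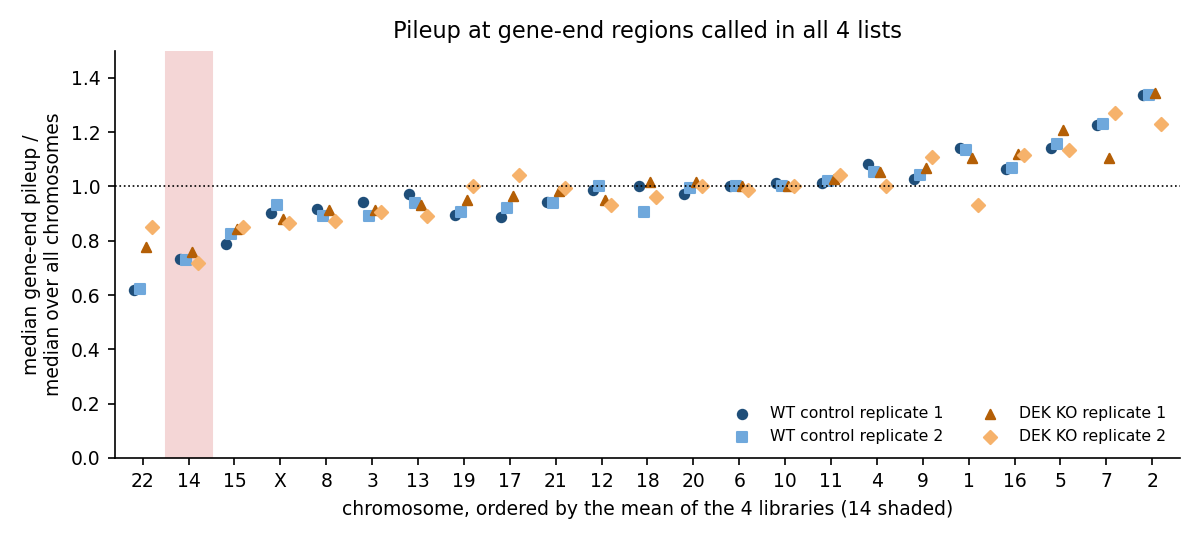
Median pileup of gene-end regions called in all 4 lists, divided by the median over all chromosomes (y axis), for each chromosome ordered by the mean of the 4 libraries (x axis), with a point per library. Chromosome 14 (shaded) is second from the left with ratios of 0.716 to 0.759.

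DEK KO lists held more peaks on chromosome 14, in proportion to their length. The controls held 2047 and 2082 peaks there and the DEK KO libraries 2314 and 2308, so the groups did not overlap (difference 246.5, exact permutation p = 0.333). As a share of each list, these were 2.29%, 2.30%, 2.25% and 2.32%, and the groups overlapped (exact permutation p = 1). Peaks were narrower in DEK KO, with medians of 604 and 624 bp in the controls and 584 and 542.5 bp in DEK KO (exact permutation p = 0.333). Over all chromosomes the medians were 610, 629, 594 and 550 bp, in the same order. The share of called regions at gene ends was 18.9% and 18.7% in the controls and 17.5% and 17.7% in DEK KO (exact permutation p = 0.333), and over all chromosomes it was 14.9%, 14.7%, 13.2% and 13.9%. In both of these measures the groups did not overlap, on chromosome 14 as over all chromosomes.

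Of the 3030 regions, 1461 (48.2%) were called in all 4 lists, against 45.3% of regions on all chromosomes. KO-only regions, present with DEK KO in each of its lists and absent from each control list, numbered 194 (6.403%, against 6.26% over all chromosomes). WT-only regions, the reverse, numbered 92 (3.04%, against 2.57%). A further 160 were called in 1 list of each genotype, 740 in a single list and 383 in other combinations. Both classes were thus near the background of all chromosomes. KO-only regions made up 67.8% of the 286 one-genotype regions (exact 95% interval 62.1 to 73.2, counting error only), and 71.0% on the other chromosomes lay inside that interval. That majority depends on list length: with all lists cut to the 89563 peaks of the shortest, chromosome 14 held 132 KO-only regions (5.16% of regions over all chromosomes being such) and 128 WT-only regions (3.96%). KO-only regions were then 50.8% of the 2 classes (44.5 to 57.0), and 56.7% on the other chromosomes.

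Along the arm, the KO-only share among bins with 20 or more one-genotype regions was highest between 70 and 75 Mb, with 23 KO-only and 4 WT-only regions (85.2%, 66.3 to 95.8), and lowest in the bin before it, between 65 and 70 Mb, with 12 and 13 (48.0%, 27.8 to 68.7). These 2 bins were picked as the extremes, so their intervals cannot be set against each other as a test. The shares per bin were not repeated with lists of equal length. The bin with HIF1A held 12 KO-only and 7 WT-only regions among 226, against 6.26% and 2.57% of regions over all chromosomes.

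**Figure D5:**
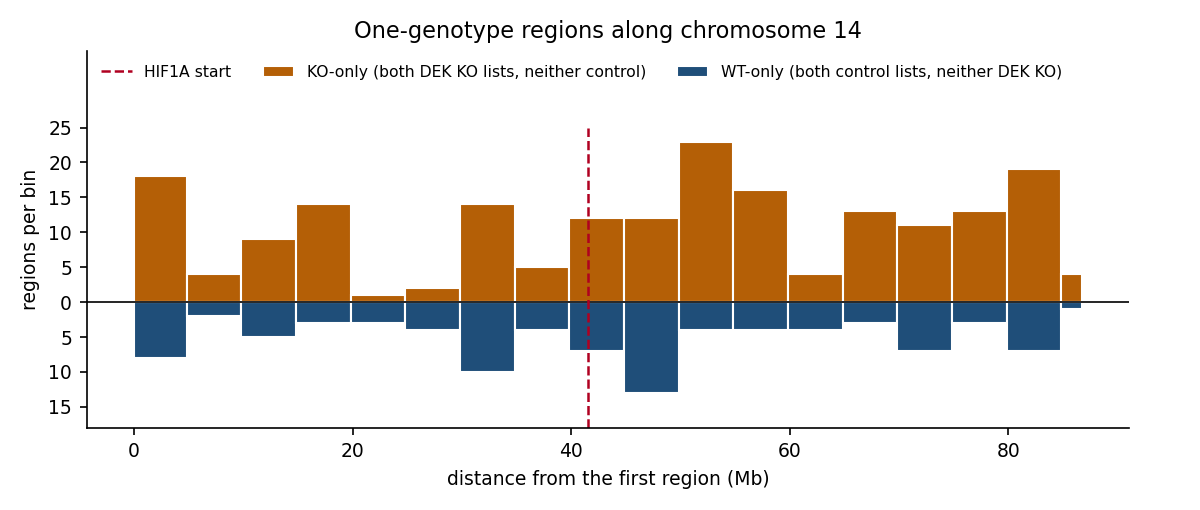
KO-only regions (above the line) and WT-only regions (below it) per bin of 5 Mb (y axis, counts in both directions) against the distance from the first region in Mb (x axis). The bin with 23 KO-only and 4 WT-only regions directly follows the bin with 12 and 13.

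None of the 8 highest-ranked KO-only regions lay within 1 kb of a gene end. Both percentiles exceeded 50 in 21 KO-only and 5 WT-only regions, 0.632% and 0.0975% of all regions being such over all chromosomes. With lists of equal length the numbers were 11 and 7, against 0.428% and 0.131% over all chromosomes. The strongest KO-only region (70731762 to 70732551) lay inside MAP3K9, which encodes a kinase upstream of JNK, with percentiles of 79.3 and 82.2 and pileups of 43 and 56. The next (97712847 to 97713617), with 74.2 and 86.7, lay 831 kb from the nearest gene end, that of VRK1, a nuclear kinase gene. The third, with 67.5 and 71.5, was 38.1 kb from TTC8, which encodes a subunit of the ciliary BBSome. NUMB, an inhibitor of Notch signalling, had one 4.88 kb from its end with 63.2 and 66.2. The region near DIO2, the deiodinase that activates thyroid hormone, had 70.5 and 63.0. The others of the first 8 lay 7.24 kb from RTL1, an imprinted gene, 10.1 kb from SERPINA1, which encodes alpha-1 antitrypsin, and inside CDC42BPB, a kinase gene that acts downstream of CDC42. All 8 were KO-only again with lists of equal length. The cut removes only the weakest peaks and adds no control call, so for regions this strong the outcome was fixed in advance.

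The strongest WT-only region (83826658 to 83827647) had percentiles of 63.5 and 59.1 in the WT controls. It lay in a gene-poor stretch 136 kb from the nearest protein-coding gene, LOC124903401, and another of the first 8 (83764319 to 83765657), with 53.4 and 76.5, lay in the same stretch. DAAM1, a formin gene of the planar polarity pathway, held one with 55.6 and 54.6. One lay 0.58 kb from the end of PSMA3, a proteasome subunit gene, with 53.1 and 52.3. A WT-only region 19.1 kb from ARF6, a GTPase of membrane traffic, had 50.1 and 59.3. The remaining 3 lay 755 kb from FBXO33, 1.56 kb from ZBTB1, and 0.129 kb from the end of GPX2, a glutathione peroxidase gene. All 8 were again WT-only with lists of equal length. The cut adds no DEK KO call and hardly shortens the control lists, so this too was fixed in advance.

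Within 1 kb of known gene starts, 11 KO-only regions were found (5.67% of KO-only regions, against 1.9% over all chromosomes). There were 3 WT-only ones (3.26% of WT-only regions, against 3.4%). The share at starts was also higher on chromosome 14 for regions called in all lists (21.1%, against 15.6%). For regions called in a single list it was 4.05%, against 2.35%. The KO-only regions at starts were weak. PSMB11, whose product is the thymus-specific proteasome subunit, had percentiles of 30.4 and 33.3 in the DEK KO lists, from pileups of 14 and 16. IFI27, an interferon-induced gene, had 19.98 and 40.1. SLC22A17, which encodes a receptor for lipocalin-2, had 16.8 and 33.3, and TMEM63C, an ion channel gene, had 11.9 and 51.7. The rest lay at RNASE8, RNASE1, HHIPL1, PABPN1, RCOR1, MARK3 and PRKD1, and their percentiles ran from 2.86 to 29.9. Of these, the regions of HHIPL1, RCOR1, MARK3, PABPN1 and PRKD1 did not cover the start. They lay 0.916, 0.542, 0.597, 0.034 and 0.095 kb from it, in that order. At RCOR1, which encodes the corepressor CoREST, a KO-only region (102593191 to 102593450) and a WT-only region (102593451 to 102593889) touched each other, without a base between them. With lists of equal length, 6 of the 11 remained KO-only. None of the WT-only regions covered the start itself. That of RCOR1 lay 0.802 kb from it, and those of DYNC1H1, the dynein heavy chain gene, and CDKL1 lay 0.76 kb from it. Counting either end of a gene, 16 of the 194 KO-only regions were gene-end regions (8.25%, exact 95% interval 4.79 to 13.05). On the other chromosomes 321 of 8479 were (3.79%). For regions called in all lists the shares on chromosome 14 and elsewhere were 23.3% and 18.4%. For WT-only regions they were 6.52% and 6.01%.

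Among regions called in all 4 lists, the strongest lay 4.62 kb from GTF2A1, a general transcription factor gene (81169942 to 81170829), with percentiles of 97.7, 98.5, 98.2 and 97.1 and pileups of 113, 121, 89 and 109. The start of WDR89 followed with 96.8, 96.5, 97.0 and 97.6. A region at the end of PIP4P1, 6.0 kb from APEX1, had 97.1, 95.6, 96.6 and 96.1. Starts of PSME2, an activator subunit of the immunoproteasome, PARP2, a DNA repair enzyme, and SEL1L, a component of endoplasmic reticulum quality control, were all above the 93rd percentile in every library. So were regions within RPS29 and ASB2. The gap between the genotypes was at most 1.02 percentile points in these 8 regions.

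Ranks of shared regions moved in both directions. Both DEK KO percentiles exceeded both control percentiles in 418 of the 1461 regions (28.6%, against 31.1% over all chromosomes), here called gains, and lay below them in 242 (16.6%, against 19.2%), here called losses. Gains were thus 63.3% of the shifted regions. With lists of equal length the balance turned, to 271 gains (19.2%, against 22.5% over all chromosomes) and 388 losses (27.5%, against 28%), so that gains were 41.1%. The direction of the balance thus changed with list length. A gap of more than 20 percentile points separated the groups in 40 gains (2.74%, against 4% over all chromosomes) and 11 losses (0.753%, against 1.14%), both smaller shares than over all chromosomes. Of these, 40 gains and 8 losses kept their direction with lists of equal length. The cut removes only the weakest peaks of the longer lists. It lowers DEK KO percentiles by less than such a gap, so the result for these gains was fixed in advance.

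The 6 largest gains were distal. The region 17.3 kb from HEATR5A (31273801 to 31274448) had percentiles of 17.1 and 10.2 in the controls and 70.9 and 62.8 in DEK KO, with pileups of 13, 11, 30 and 29. One inside EFCAB11 had 20.8 and 26.1 against 71.4 and 77.9. Another inside PPP4R4, a regulatory subunit gene of protein phosphatase 4, had 20.8 and 22.4 against 67.1 and 78.7. The others lay 215 kb from DDHD1, a phospholipase gene, 75.5 kb from ADCK1 and inside TTC7B, a scaffold gene of phosphatidylinositol 4-kinase. The largest loss (53850592 to 53851617) lay 98.1 kb from BMP4, which encodes a signalling protein of kidney and eye development. It had percentiles of 54.4 and 62.7 in the controls and 7.03 and 2.52 in DEK KO, with pileups of 26, 30, 9 and 8. A region inside TTLL5, a tubulin-modifying enzyme gene, had 66.0 and 70.9 against 26.1 and 14.7. The others lay 69.2 kb from NUBPL, which encodes an assembly factor of respiratory complex I, 845 kb from RPS29, 17.7 kb from PTGR2 and inside SYNE2, the gene of nesprin-2. All 6 gains and 4 of the 6 losses kept their direction with lists of equal length. For the gains this was fixed in advance by their wide gaps.

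At gene starts the shifts were smaller. TTC9 had 20.8 and 10.2 in the controls and 41.8 and 42.9 with DEK KO. NIN, a centrosomal protein gene, had 19.7 and 20.5 against 52.5 and 34.7, and CFL2, the muscle cofilin gene, had 40.8 and 27.5 against 53.3 and 60.4. PTPN21, MIPOL1 and WDR20 were the other starts among the 6 largest gains, with gaps of 10.9 to 12.8 points. In the other direction, a region 0.555 kb inside NFKBIA, which encodes the NF-kB inhibitor IkB-alpha, had 41.5 and 60.3 in the controls and 9.90 and 27.7 in DEK KO. The region over the NFKBIA start itself had 33.6 and 28.2 against 50.2 and 25.5, with overlapping groups. AKT1, a growth factor signalling kinase, had 32.9 and 34.7 against 19.6 and 17.4 in a region 0.658 kb from its start. The start of KIAA0586, a ciliary gene, had 85.7 and 81.6 against 71.7 and 67.4. TTC6, SIPA1L1 and a start of MAP3K9 followed. At gene ends as a whole, gains were 81 of 341 regions (23.8%, against 24.2% over all chromosomes) and losses 40 (11.7%, against 16.3%).

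Gene groups of the arm differed in how many starts were open. Each region counts for the gene whose end is nearest, up to 50 kb away, and an open start or end is one within 1 kb of a region called in all 4 lists. In the oxygen sensing list, 5 of 7 genes had an open end. EGLN3, the prolyl hydroxylase that marks HIF subunits and is itself a HIF target, had percentiles of 71.7 and 70.05 at its start in the controls and 61.9 and 64.2 in DEK KO. The start of ERO1A, an oxidase of protein folding, had 46.6, 58.6, 47.0 and 64.3, with overlapping groups. PGF, a VEGF family ligand, was not open in all lists: its start region was missing in WT control replicate 1 and had 5.99, 45.2 and 29.9 in the others. Among its 6 regions, 2 were KO-only. The list had 43 regions in total. The 17 that every list called included 5 gains and 2 losses (29.4% and 11.8%, against 31.1% and 19.2% over all chromosomes). KO-only regions numbered 3 (6.98%, against 6.26%) and WT-only regions 0.

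Few developmental regulators had an open end. SIX4, a homeobox factor, had percentiles of 56.8, 66.7, 61.0 and 68.8 at its start. OTX2 and SIX6, factors of eye and brain, had no region assigned, and BMP4 had 1 region and none at its ends. Of 8 homeobox and forkhead genes of forebrain, lung and foregut, 1 had an open end, FOXA1, with 44.3, 49.9, 61.7 and 44.0. PAX9 and NPAS3 were open at a start away from their ends, and GSC and NKX2-1 had no region at a start or end. Of 14 olfactory receptor genes, 0 had an open end and 10 had no region assigned. Of 9 markers of heart muscle, lymphocytes, granulocytes and retina, 2 had an open end. They were BCL11B, a T cell and neuronal factor (51.3, 45.7, 50.3 and 58.9), and NRL, a retinal factor, at the region that also gives PCK2 its open start. MYH6, MYH7 and TCL1A had no region.

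Housekeeping and repair genes included some of the strongest starts. Of 8 proteasome genes, 7 had an open start. PSMB5, a catalytic subunit, had 88.6, 93.1, 95.7 and 92.0, PSMA3 had 89.5, 86.1, 95.2 and 89.3, and PSMA6 had 89.6, 84.2, 84.7 and 80.9. PSMB11 was the exception described above. All 7 DNA repair genes had an open end. The start of APEX1, the main abasic-site endonuclease, had 87.1 and 85.5 in the controls and 92.4 and 91.1 in DEK KO. Among 6 chromatin genes, 5 had an open end, and the starts of 4 were gains, with small gaps of 0.30 to 3.17 points. Over all chromosomes 60% of genes had an open end, and 24.2% of gene-end regions called in all lists were gains. CHD8, a chromatin remodeller, had 81.4 and 78.0 against 87.6 and 84.6. PRMT5, an arginine methyltransferase, had 90.4 and 89.4 against 91.3 and 95.5. The others were ARID4A and RCOR1.

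The 7 kinase and growth signalling genes held 71 regions, of which 8 were KO-only (11.3%, against 6.26% over all chromosomes) and 1 was WT-only (1.41%, against 2.57%). The KO-only counts of the lists were not repeated with lists of equal length, which evened the 2 classes over the arm. MAP3K9, PRKCH and PRKD1 had 2 KO-only regions each. In the AP-1 and MYC partner list, FOS, an immediate early gene, had 48.8 and 50.1 at its start in the controls and 60.8 and 79.8 in DEK KO. ZFP36L1, which encodes an RNA decay factor, had 2 WT-only regions, and BATF and JDP2 had no open end. WT-only regions were 5.13% of the 39 regions of that list, against 2.57% over all chromosomes. The NF-kB, interferon and cell death list held 26 regions called in all lists with 6 gains and 6 losses (23.1% each, against 31.1% and 19.2% over all chromosomes). Matrix and adhesion genes held 31 such regions with 9 gains and 6 losses, 29.0% and 19.4% and thus near the same background. They also held 3 WT-only (6.25%, against 2.57%) and 0 KO-only regions. Of these 3, 2 were at FERMT2, an integrin activator gene, and 1 at SMOC1, a matrix protein gene.

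In the renal transport list of 6 genes, the start of SLC39A9, a zinc transporter, was open and a gain, with 75.2 and 77.4 against 84.9 and 90.05. SLC22A17 had a KO-only region at its start, as given above. Of 9 metabolic enzymes, 7 had an open end. ACOT1, an acyl-CoA thioesterase, had 65.8 and 68.9 against 74.6 and 74.6 at an end. CKB, the brain-type creatine kinase, had 1 WT-only region, and such regions were 4.55% of that list, against 2.57% over all chromosomes. In the serpin cluster 3 of 9 genes had an open end, SERPINA1, SERPINA5 and SERPINA6. SERPINA1 had 62.8, 55.9, 41.1 and 59.8 at its start. In the RNase A cluster, ANG, which encodes angiogenin, and RNASE4 shared an open start, a gain with 60.3 and 65.5 against 71.5 and 71.3. RNASE1 had 2 KO-only regions and RNASE8 had 1. KO-only regions were 17.6% of the 17 regions of that list, against 6.26% over all chromosomes, a small count not repeated with lists of equal length. The imprinted genes DLK1, RTL1 and DIO3 had no open end.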

How the data were processed

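Chromatin opened to transposase was profiled in 4 libraries of 786-O cells, 2 per genotype. The authors called peaks per library. Per the submitters' processing notes, the tools included MACS2 2.2.7.1 and Bowtie2 2.2.5, besides Picard 2.26.9, cutadapt 1.18 and SAMtools 1.7, and for later steps ChIPseeker 1.32.1, DiffBind 3.6.5 and deepTools 3.5.1, with GRCh38 as build. Tool settings are not given in the sources used here. In addition, the labels' extraction text describes RNA although the molecule is given as genomic DNA, so how the DNA was prepared is not given either. The deposited score of a peak is a rescaled −log10 q. The deposited fold is the ratio of pileup to background at the summit, within 1 library and without a control library. The deposited −log10 p and −log10 q are the authors' peak caller's values for that summit. All are the authors' values and serve here to describe and rank peaks within a list.

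Autosomal and X peaks were merged on an overlap of 1 bp or more, and percentiles of −log10 p were taken within each list. Assuming that fold is (pileup + 1) divided by (background + 1) and that p is a Poisson upper tail, a whole pileup was recovered for 100% of peaks (tolerance 0.001 in −log10 p). The recovery was tested on simulated data. Libraries hold no total counts, so depth is known only through these pileups. Genes and promoter sequences came from RefSeq tables of GRCh38.p14, and no genome sequence was used. Libraries were compared with exact two-sided permutation tests, and intervals of shares are exact binomial ones at 95%, for counting error alone. Python 3.11.15, numpy 2.4.6, pandas 2.3.3, scipy 1.17.1 and matplotlib 3.10.9 were used.

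The regions and gene lists were chosen with earlier results of these data known. Named were HIF1A and its neighbours within 500 kb, the 8 highest-ranked regions of each class, the 6 largest gains and losses, the extreme bins and gaps, and up to 4 members of each list, first those with a one-genotype region at an end. Regions at gene starts and the other list members named were chosen after their values were seen. Alternatives were a stricter q, lists of equal length, other overlap rules, rank by fold, other bins and leaving out each library. Some list members are not reported here.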

Additional observations from a re-analysis of the deposited data

How the results depend on the processing

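Of 133 settings over 19 results, 82 kept the direction or stayed near the reported value. Lists of equal length gave a difference in the share of the list on chromosome 14 of 0.0380 percentage points, 50.8% KO-only, 11 KO-only regions with both percentiles above 50, 271 gains and 388 losses. A −log10 q of at least 5 gave 58.0% KO-only, 6 KO-only and 0 WT-only regions above 50, a difference in median percentile of 0.201, 18 regions in the HIF1A window, which then stood 7th on the arm, and 2.81% of peaks in the top 10%. Requiring peaks to cover 50% of a region gave 139 WT-only regions, 60.5% KO-only and 22 WT-only regions above 50. Ranking by fold gave 37 KO-only regions above 50, 9.12% in the top 10% and place 5. Bins of 1 Mb gave a density ratio of 2.78 for the HIF1A bin, and all regions called in all lists gave a pileup ratio of 0.862. The alternatives for the top 10%, for the place in density and for the place of the HIF1A window were chosen after seeing the data. The cause of these changes was not tested.

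Leaving out 1 library gave −0.0424 to 0.0252 for the share difference, 293 to 472 KO-only and 153 to 223 WT-only regions, and 56.8% to 73.4% KO-only. It gave 33 to 46 KO-only and 7 to 13 WT-only regions above 50, −1.28 to 0.0985 for the median percentile, 654 to 717 gains, 389 to 507 losses and −5.5 to 0.5 peaks in the HIF1A window, which stood at place 1 to 2 on the arm. With 1 library in an arm, a class asks for fewer calls, which raises these counts by construction.

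Percentiles of same-numbered libraries did not deviate together (r = 0.0124 over 62686 regions, 0.0353 over the 1461 of chromosome 14). Ranks within a list cannot show a batch that acts on depth or list length, and such a batch was not tested. With the replicate block, the exact sign-flip p was 0.5 for the peak difference of 246.5, 1 for the share (−0.00857), 1 for the median percentile (−0.591) and 0.5 for the HIF1A window (−2.5).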

Other observations

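Gene segments of 2 antigen receptor loci lie on the arm. The T cell receptor alpha and delta locus (127 segments over 930 kb) held 31 regions, 7 of them shared by every list and 12 found in a single list. The immunoglobulin heavy chain locus (174 segments over 1293 kb) held 29 regions, with 8 in all lists, 10 in a single list and 0 in the KO-only or WT-only class. Between DLK1 and DIO3, 50 miRNA hairpins spread over 746 kb, and that stretch held 20 regions, with 7 in all lists, 4 KO-only and 1 WT-only. Over all chromosomes, 45.3% of regions were called in all lists and 29.4% in a single list, 6.26% were KO-only and 2.57% WT-only. The counts of these loci were not repeated with lists of equal length. Of 90 hairpins on the chromosome, 2 lay in a region called in all lists, MIR4707 and MIR6076.

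Covered base pairs on chromosome 14 were shared most within a genotype. The shared length over the joint length was 0.649 for the WT control pair and 0.601 for the DEK KO pair, and between 0.557 and 0.587 for the 4 pairs across genotypes. Over the 1461 regions called in all lists, the rank correlation of percentiles was 0.896 and 0.859 within genotypes and 0.787 to 0.808 across them. These describe regions that share libraries, and regions are not replicates.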
